A study of Homo sapiens with 6 samples.

Results

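The NF-kB subunits and their feedback targets were followed here as 10 genes of 61806 in the deposited table, chosen by gene symbol: the subunit genes RELA, RELB, REL, NFKB1 and NFKB2, the inhibitor genes NFKBIA and NFKBIE, the ubiquitin-editing and ligase genes TNFAIP3 and BIRC3, and the kinase gene IKBKE. Each symbol matched a single gene, and all 10 passed the filter on low counts. RNA was sequenced after mRNA capture in 6 libraries of MDA-MB-231, a human triple-negative breast cancer cell line, with 2 libraries of each line. The shHMGA2-1 and shHMGA2-2 lines carried different short hairpin RNAs against HMGA2, a chromatin protein that binds AT-rich DNA, and shNC was the control line; the control libraries are titled shNC but named WT, and the libraries titled shHMGA2-1 have SH2 in their names. Lines are named here by the titles, and which hairpin each library name refers to was not settled. Per the study's methods the hairpins came in a pLKO lentivirus, infected cells were kept under puromycin, and a stable line was expanded from a single clone, which the methods do not state for shNC. The effect of a hairpin and the properties of the line that carries it therefore cannot be told apart. The libraries are not stated to come from separate cultures, so the p-values measure only the spread between these libraries, which may be technical.

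Libraries held 16461178 to 17167293 counts. HMGA2 was at 2126 and 2161 counts in shNC cells, 858 and 989 for shHMGA2-1, and 435 and 482 for shHMGA2-2, so that it was lower in every library of the knockdown lines and lowest in shHMGA2-2 (log2 fold change -1.29, SE 0.09, adjusted p = 1.97e-11 for shHMGA2-1, and log2 fold change -2.31, SE 0.09, adjusted p = 1.81e-16 for shHMGA2-2, edgeR quasi-likelihood test). The 5 markers looked for in MDA-MB-231 (VIM, CD44, EGFR, AXL, CAV1) were detected in every library, at a summed 4417 to 5452 CPM (counts scaled to a common library size). Of the markers that this line should lack or hold at low levels, CDH1 reached at most 4 counts, PGR at most 2 and ESR1 at most 12, whereas ERBB2 (1126 to 1909) and EPCAM (127 to 302) were detected. The 12 leukocyte markers summed to 6 to 31 counts a library and none passed the filter, with CD2, CD3E, MS4A1 and TYROBP at 0 in all 6 libraries. The 4 endothelial markers summed to 47 to 73 counts. KDR held most of them (line means of 3.04 to 3.53 CPM), and PECAM1, CDH5 and VWF were each at most 0.86 CPM in any library.

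NF-kB is a family of dimeric transcription factors. In the canonical pathway a dimer such as RELA with p50, which is made from the NFKB1 product, is held in the cytoplasm by the inhibitor IkB-alpha (NFKBIA) until the IKK complex marks the inhibitor for degradation. Freed dimers then induce NFKBIA, NFKBIE and TNFAIP3, the gene of the ubiquitin-editing enzyme A20, which restrain the pathway as negative feedback. In the non-canonical pathway the p100 product of NFKB2 is processed to p52, which pairs with RELB, and the ligases cIAP1 and cIAP2 (BIRC2 and BIRC3) keep this branch low by limiting the kinase NIK. MDA-MB-231 is known for NF-kB activity without added stimulus. RNA was measured here, not protein, processing or nuclear location.

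In the coordinates of the deposited table, read as GRCh38.p13, the subunit genes lie apart from each other: RELA (ENSG00000173039) on chromosome 11 from 65653599 to 65663090 (minus strand), RELB (ENSG00000104856) on chromosome 19 from 45001461 to 45038192 (plus strand), REL (ENSG00000162924) on chromosome 2 from 60881491 to 60931612 (plus strand), NFKB1 (ENSG00000109320) on chromosome 4 from 102501330 to 102617302 (plus strand) and NFKB2 (ENSG00000077150) on chromosome 10 from 102394110 to 102402524 (plus strand). The inhibitor genes are NFKBIA (ENSG00000100906) on chromosome 14 from 35401079 to 35404749 (minus strand) and NFKBIE (ENSG00000146232) on chromosome 6 from 44258166 to 44265788 (minus strand). The others are TNFAIP3 (ENSG00000118503) on chromosome 6 from 137867214 to 137883314 (plus strand), BIRC3 (ENSG00000023445) on chromosome 11 from 102317450 to 102339403 (plus strand) and IKBKE (ENSG00000263528) on chromosome 1 from 206470476 to 206496889 (plus strand).

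RefSeq promoter windows, from 250 bases before to 50 bases after a start site in GRCh38.p14, were at hand for 8 of the 10 genes, in 12 windows; RELB and NFKBIE had none. They were searched on both strands for the kappa-B consensus, the DNA motif that NF-kB dimers bind. The windows of NFKBIA, TNFAIP3 and BIRC3 are shown because these feedback genes differed most between the knockdown lines among those with a window, and that of RELA because RELA differed least. Each is written 5′ to 3′ on the strand of the gene, with the bases of each match in capitals. The coordinates are chr14:35404700-35404999 on the minus strand for NFKBIA, chr6:137867009-137867308 on the plus strand for TNFAIP3, chr11:102317234-102317533 on the plus strand for BIRC3, and chr11:65662867-65663166 on the minus strand for RELA.
NFKBIA: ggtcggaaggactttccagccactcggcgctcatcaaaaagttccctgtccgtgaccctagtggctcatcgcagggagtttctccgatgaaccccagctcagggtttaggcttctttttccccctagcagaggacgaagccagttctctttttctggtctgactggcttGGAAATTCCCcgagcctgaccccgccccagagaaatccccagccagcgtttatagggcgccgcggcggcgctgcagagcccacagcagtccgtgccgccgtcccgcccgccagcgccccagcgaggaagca
TNFAIP3: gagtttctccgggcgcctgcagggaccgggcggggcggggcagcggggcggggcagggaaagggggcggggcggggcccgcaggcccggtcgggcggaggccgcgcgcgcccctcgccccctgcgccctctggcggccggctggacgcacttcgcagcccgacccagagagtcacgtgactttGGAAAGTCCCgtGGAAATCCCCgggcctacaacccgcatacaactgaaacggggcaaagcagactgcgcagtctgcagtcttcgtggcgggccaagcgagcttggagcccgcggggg
BIRC3: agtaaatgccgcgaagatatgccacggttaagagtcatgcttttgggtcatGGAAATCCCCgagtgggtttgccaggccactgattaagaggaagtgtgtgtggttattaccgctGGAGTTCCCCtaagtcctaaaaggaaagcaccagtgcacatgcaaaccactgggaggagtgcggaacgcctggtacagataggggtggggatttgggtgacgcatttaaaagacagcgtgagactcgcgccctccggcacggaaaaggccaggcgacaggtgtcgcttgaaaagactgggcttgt
RELA: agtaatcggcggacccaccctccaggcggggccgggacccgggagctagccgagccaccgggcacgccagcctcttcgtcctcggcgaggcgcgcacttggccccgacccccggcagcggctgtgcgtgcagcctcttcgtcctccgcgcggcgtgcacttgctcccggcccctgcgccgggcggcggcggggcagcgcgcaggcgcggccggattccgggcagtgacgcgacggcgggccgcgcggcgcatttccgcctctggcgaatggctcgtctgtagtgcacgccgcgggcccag

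The NFKBIA window holds a match that begins 81 bases before the start site, TNFAIP3 has matches at 67 and 55 bases, and BIRC3 at 199 and 135 bases. REL has overlapping matches at 47 and 46 bases, and the first window of NFKB1 has a match at 49 bases. The second NFKB2 window holds overlapping matches at 107 and 106 bases and another at 78, and the third holds matches at 176 and 21 bases. No match was found in either RELA window, in IKBKE, in the second window of NFKB1 or in the first of NFKB2. In all, 7 of the 12 windows (58.3%) held a match, against 11.3% of 35116 RefSeq windows. A match is a description of the letters, not of a bound site, and since several of these genes were chosen as known NF-kB targets the difference in shares is no test.

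Levels were compared between genes as FPKM, which scales a count by exonic size and library total and carries no TMM factor. The deposited exonic sizes ran from 2581 bases (NFKBIE) to 17129 (REL), with 15679 for NFKB1, 5583 for NFKB2 and 5457 for RELA. The order of genes in FPKM rests on these sizes, and their fit to the transcripts made in these cells was not tested. In shNC the highest was BIRC3 at 19.3 ± 0.636 FPKM (SD, n = 2), followed by RELA at 15.3 ± 1.44 FPKM (SD, n = 2). NFKBIA (9.95 ± 0.919 FPKM (SD, n = 2)) and NFKB2 (8.39 ± 1.28 FPKM (SD, n = 2)) overlapped each other. Below them, with no overlap between neighbours, came NFKBIE (5.85 FPKM), NFKB1 (4.35), RELB (3.75), IKBKE (3.54), TNFAIP3 (1.62) and REL (0.675). The order in shHMGA2-1 was close to that of the control: BIRC3 led at 26.8 ± 3.42 FPKM (SD, n = 2) and RELA followed at 15.3 ± 1.27 FPKM (SD, n = 2), while NFKB2 and NFKBIA overlapped and RELB stood above NFKB1. In shHMGA2-2 RELA took the fourth place in this order at 17.1 ± 0.742 FPKM (SD, n = 2), below BIRC3 (80.7 ± 4.70 FPKM (SD, n = 2)), NFKBIA (30.9 ± 1.95 FPKM (SD, n = 2)) and NFKB2 (18.3 ± 0.488 FPKM (SD, n = 2)). There RELB overlapped NFKBIE, and NFKB1 overlapped TNFAIP3.

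**Figure D1:**
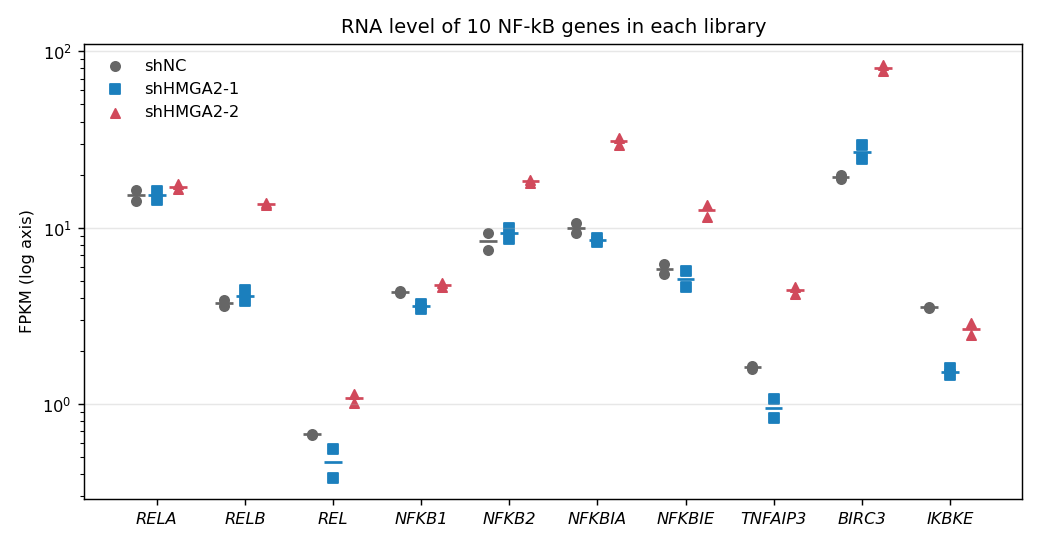
FPKM (log axis) of the 10 NF-kB genes in each of the 6 libraries, coloured by line, with a bar at each mean of 2 libraries. In FPKM, which carries no TMM factor, both shHMGA2-2 libraries stand above the other 4 for every gene except IKBKE. For IKBKE they lie between the shHMGA2-1 and the shNC libraries. For RELA they are at 16.6 and 17.6 FPKM against a highest value of 16.3 elsewhere. In CPM, with TMM library sizes, shHMGA2-2 overlapped shNC for RELA (87.8 and 91.3 against 81.2 and 92.8). The same held for NFKB1 (73.6 and 68.6 against 70.2 and 72.0), and neither gene was called in shHMGA2-2 against shNC. How many of all genes have both shHMGA2-2 libraries above the other 4 in FPKM was not counted, so the separation is a description only.

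The transactivating subunits gave different results. As in any bulk sample, a change in RNA per cell and a change in the share of cells that hold it cannot be told apart. RELB, whose product pairs with p52, was at 182 and 199 counts in shNC cells, 228 and 196 for shHMGA2-1, and 664 and 686 for shHMGA2-2. Only the shHMGA2-2 libraries stood apart, 3.35-fold above shNC (log2 fold change 1.74, SE 0.12, adjusted p = 3.41e-12), whereas the shHMGA2-1 value did not pass the test (log2 fold change 0.075, SE 0.13, adjusted p = 0.706). RELA, the main canonical subunit, was at 1321 and 1510 counts in shNC cells, 1516 and 1344 for shHMGA2-1, and 1488 and 1594 for shHMGA2-2. No RELA comparison passed the test, and the 95% confidence interval of its log2 fold change was -0.24 to 0.11 in shHMGA2-1 and -0.13 to 0.21 in shHMGA2-2. REL, the gene of c-Rel, best known from lymphocytes, was at 196 and 197 counts in shNC cells, 113 and 163 for shHMGA2-1, and 322 and 290 for shHMGA2-2. It fell in shHMGA2-1 (log2 fold change -0.59, SE 0.16, adjusted p = 0.00725) and rose in shHMGA2-2 (log2 fold change 0.56, SE 0.15, adjusted p = 0.00246). Both REL calls depended on single libraries: the shHMGA2-1 call was lost without shHMGA2-1 replicate 1 (adjusted p = 0.137, edgeR) or shNC replicate 2 (0.0547), and the shHMGA2-2 call without shHMGA2-2 replicate 1 (0.0617).

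The precursor subunits also differed. NFKB2 was at 881 and 710 counts in shNC cells, 960 and 826 for shHMGA2-1, and 1714 and 1663 for shHMGA2-2. The first 2 lines overlapped (log2 fold change 0.087, SE 0.10, adjusted p = 0.544), and shHMGA2-2 was 2.01-fold above shNC (log2 fold change 1.01, SE 0.10, adjusted p = 2.66e-09). NFKB1 was at 1142 and 1172 counts in shNC cells, 992 and 932 for shHMGA2-1, and 1248 and 1198 for shHMGA2-2. It fell in shHMGA2-1 (log2 fold change -0.35, SE 0.08, adjusted p = 0.0022), a call that was lost without shNC replicate 2 (adjusted p = 0.0527, edgeR). In shHMGA2-2 the NFKB1 estimate was near 0 after scaling, with a 95% confidence interval of -0.17 to 0.17 on the log2 scale.

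Within a library the ratios and shares of subunit RNA can be set out without scaling between libraries. RELB was 0.240 to 0.251 times RELA in FPKM in shNC, 0.266 to 0.274 times in shHMGA2-1, and 0.784 to 0.813 times in shHMGA2-2. NFKB2 was 1.70 to 2.17 times NFKB1 in shNC, 2.49 to 2.72 times in shHMGA2-1, and 3.85 to 3.90 times in shHMGA2-2. That order rests on the exonic sizes, since by counts NFKB1 stood above NFKB2 in shNC (1142 and 1172 against 881 and 710). The sizes cancel where a ratio is compared between lines. Sums compared between libraries do rest on library totals, here with no TMM factor (0.96 in shNC, 1.03 and 1.05 in shHMGA2-2). The 5 subunits summed to 32.1 and 32.8 FPKM in the control, to 34.7 and 30.9 in shHMGA2-1 and to 54.7 and 55.0 in shHMGA2-2. RELB and NFKB2, the non-canonical pair, took larger shares of that sum in both shHMGA2-2 libraries than in any other library.

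**Figure D2:**
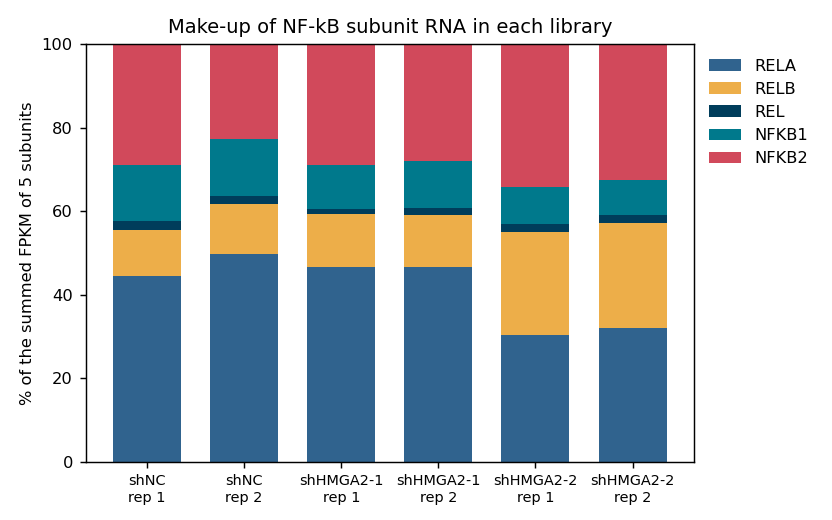
Share (%) of the summed FPKM of the 5 subunit genes held by each, in each of the 6 libraries. The shares depend on the deposited exonic sizes. RELA held 44.4% and 49.7% in shNC, 46.6% in both shHMGA2-1 libraries, and 30.3% and 32.0% in shHMGA2-2, where RELB held 24.6% and 25.1% against 11.2% to 12.8% in the other lines.

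Both IkB genes were higher in shHMGA2-2 than in either other line. NFKBIA was at 536 and 611 counts in shNC cells, 510 and 480 for shHMGA2-1, and 1648 and 1816 for shHMGA2-2. It rose 2.85-fold in shHMGA2-2 (log2 fold change 1.51, SE 0.09, adjusted p = 4.4e-13) and fell in shHMGA2-1 (log2 fold change -0.29, SE 0.10, adjusted p = 0.0234). The call of the fall was lost without shNC replicate 2 (adjusted p = 0.325, edgeR) and with upper quartile scaling (0.0759). NFKBIE, the gene of IkB-epsilon, was at 240 and 272 counts in shNC cells, 252 and 203 for shHMGA2-1, and 491 and 578 for shHMGA2-2. It rose 1.97-fold in shHMGA2-2 (log2 fold change 0.98, SE 0.12, adjusted p = 2.46e-07), and its shHMGA2-1 value did not pass the test (log2 fold change -0.25, SE 0.13, adjusted p = 0.164). Relative to RELA in the same library, NFKBIA was at 0.650 to 0.652 in shNC, 0.541 to 0.574 in shHMGA2-1 and 1.78 to 1.83 in shHMGA2-2, as FPKM ratios.

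The ubiquitin-pathway genes differed in their direction in shHMGA2-1. TNFAIP3 was at 173 and 179 counts in shNC cells, 117 and 91 for shHMGA2-1, and 485 and 446 for shHMGA2-2. The knockdown lines lay on opposite sides of the control: TNFAIP3 fell in shHMGA2-1 (log2 fold change -0.84, SE 0.16, adjusted p = 0.000173) and rose in shHMGA2-2 (log2 fold change 1.32, SE 0.13, adjusted p = 5.15e-09). BIRC3 was at 2525 and 2411 counts in shNC cells, 3153 and 3767 for shHMGA2-1, and 10396 and 9646 for shHMGA2-2. It was the one gene of the 10 that rose in both lines, 1.33-fold in shHMGA2-1 (log2 fold change 0.41, SE 0.08, adjusted p = 0.000255) and 3.84-fold in shHMGA2-2 (log2 fold change 1.94, SE 0.08, adjusted p = 2.9e-16). IKBKE, the gene of an IKK-related kinase that also acts in interferon induction, was at 226 and 230 counts in shNC cells, 104 and 95 for shHMGA2-1, and 153 and 181 for shHMGA2-2. It was the one gene of the 10 that fell in both lines, 2.42-fold in shHMGA2-1 (log2 fold change -1.27, SE 0.15, adjusted p = 5.05e-07) and 1.44-fold in shHMGA2-2 (log2 fold change -0.53, SE 0.14, adjusted p = 0.00289).

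Whether reads were counted by strand is not stated, so reads of a gene and of an antisense gene that overlaps it cannot be told apart. RELA-DT had 35 to 83 counts a library, at most 5.58% of the RELA count, WAKMAR2 had 4 to 19, at most 7.82% of TNFAIP3, and C1orf147 had 4 to 14, at most 7.73% of IKBKE. ENSG00000288528 had 2 to 12 counts, at most 0.498% of BIRC3. The counts given to these overlapping genes were small beside those of the members. They do not show how many reads from a shared stretch were given to a member or left out.

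Over the 10 genes, 1 rose and 5 fell in shHMGA2-1 at an adjusted p under 0.05 (edgeR, over 16110 genes), against 15.8% of all genes that rose and 17.7% that fell. Under upper quartile scaling the all-gene calls in shHMGA2-1 split into 3253 higher and 2278 lower, against 2546 and 2844 here, and 5 of the 10 genes were called. Without shNC replicate 2, and by limma on log2 FPKM, 3 of the 10 were called. The median log2 fold change of the 10 was -0.27, and that of all genes 0.010. In shHMGA2-2, 7 rose and 1 fell, against 29.5% and 29.2% of all genes, and 5 of the 7 rose at least 2-fold, as did 11.7% of all genes. The all-gene calls in shHMGA2-2, 4759 higher and 4707 lower, became 5810 and 3884 under upper quartile scaling and 5473 and 3544 under limma on log2(FPKM + 1), and 8 of the 10 genes were called under both. The median was 0.99 in shHMGA2-2, and 0.028 for all genes. Since the 10 genes were chosen with earlier results of these data known, the shares of all genes are a background and no test.

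The direct comparison of the knockdown lines tests whether their values differ from each other, with no control in it. Here 9 of the 10 genes were higher in shHMGA2-2 and none was lower, against 24.5% and 25.7% of all genes, with RELA as the exception (log2 fold change 0.11, SE 0.08, adjusted p = 0.304). Of the 10, 6 were at least 2-fold higher in shHMGA2-2, as were 7.83% of all genes. Here too the shares of all genes are no test, as the 10 were chosen with earlier results known. TNFAIP3 differed most, 4.47-fold (log2 fold change 2.16, SE 0.14, adjusted p = 4.13e-12), then NFKBIA at 3.49-fold (log2 fold change 1.80, SE 0.09, adjusted p = 3.25e-14), RELB at 3.18-fold (log2 fold change 1.67, SE 0.11, adjusted p = 1.03e-11) and BIRC3 at 2.89-fold (log2 fold change 1.53, SE 0.08, adjusted p = 3.41e-14). NFKBIE (2.35-fold) and REL (2.21-fold) were the others past 2-fold, and NFKB2 (1.89-fold), IKBKE (1.67-fold) and NFKB1 (1.27-fold) were called below it. IKBKE was thus higher in shHMGA2-2 than in shHMGA2-1 while lower than the control in both. The median log2 difference of the 10 genes was 1.19, and that of all genes -0.0018.

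**Figure D3:**
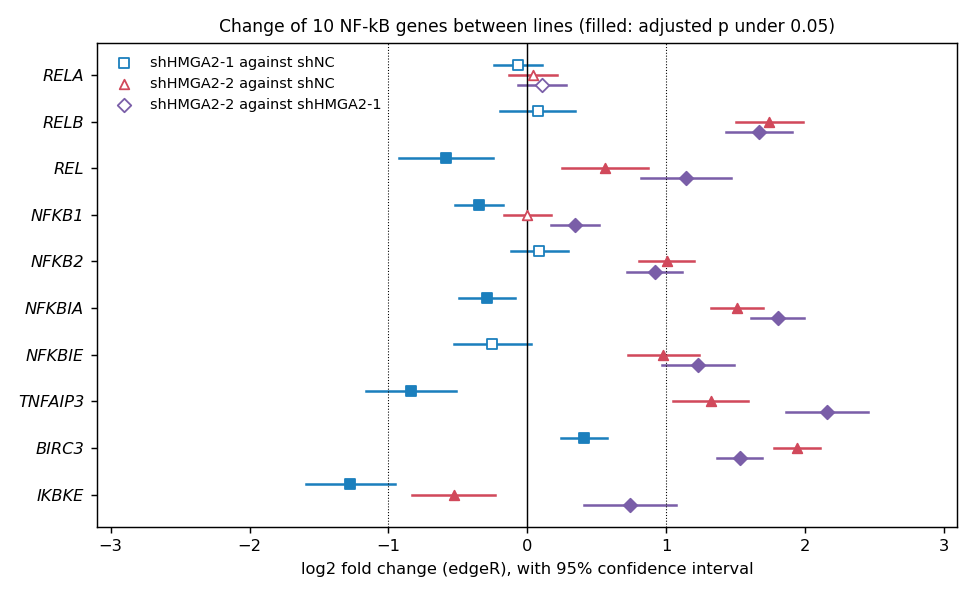
Log2 fold change of the 10 NF-kB genes with its 95% confidence interval (edgeR, 2 libraries a line), for each knockdown line against shNC and for shHMGA2-2 against shHMGA2-1; filled symbols have an adjusted p under 0.05 and dotted lines mark a 2-fold change. All direct differences lie above 0 apart from RELA, whose interval of -0.07 to 0.28 includes it.

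With both knockdown lines pooled as a single group of 4 libraries against 2, none of the 10 genes passed the test, against 5.26% of all genes in either direction by edgeR (377 higher and 471 lower, which became 471 and 375 with upper quartile scaling). At an unadjusted p under 0.05 there were 2, BIRC3 (log2 fold change 1.37, SE 0.56, adjusted p = 0.189) and IKBKE (log2 fold change -0.86, SE 0.28, adjusted p = 0.135). DESeq2 called 1, BIRC3 (adjusted p = 0.0425), with 3 at an unadjusted p under 0.05, and limma called none, with 1 at an unadjusted p under 0.05. The biological coefficient of variation was 0.291 in this fit and 0.0583 with the 3 lines as separate groups, since the difference between the knockdown lines then counts as spread. For NFKBIA the pooled log2 fold change was 0.88 with a standard error of 0.63, as its libraries lay on both sides of the control.

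Of 126 other genes of the pathway in 6 lists, 112 passed the filter on low counts. The lists were also chosen with earlier results known, so the shares of all genes beside them are no test. Among the other IkB proteins, BCL3 and the core IKK complex (7 tested), none rose and 4 fell in shHMGA2-1 (15.8% and 17.7% of all genes), and 3 rose and 3 fell in shHMGA2-2 (29.5% and 29.2%). BCL3, a nuclear partner of p50 and p52, had 114 and 75 counts in shNC cells, 42 and 49 for shHMGA2-1, and 147 and 193 for shHMGA2-2. It passed the test in opposite directions in the lines (log2 fold change -1.13, SE 0.24, adjusted p = 0.000629 in shHMGA2-1 and log2 fold change 0.76, SE 0.20, adjusted p = 0.00182 in shHMGA2-2). The call in shHMGA2-2 was lost without shNC replicate 2 (adjusted p = 0.0767, edgeR) or shHMGA2-2 replicate 2 (0.0722). NFKBID, another nuclear IkB protein, rose in shHMGA2-2 (log2 fold change 1.25, SE 0.21, adjusted p = 2.12e-05). IKBKB, the gene of the catalytic subunit IKK-beta, was lower in both lines (log2 fold change -0.29, SE 0.10, adjusted p = 0.027, and log2 fold change -0.43, SE 0.10, adjusted p = 0.000638), but its shHMGA2-1 call was lost in 9 alternatives, among them the fits without shNC replicate 2 (adjusted p = 0.284, edgeR), shNC replicate 1 (0.0567), shHMGA2-1 replicate 2 (0.163), shHMGA2-2 replicate 1 (0.0557) or shHMGA2-2 replicate 2 (0.0523), and limma called it in neither line (lowest adjusted p = 0.0727).

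Among 16 receptors, 3 rose and 5 fell in shHMGA2-1 (15.8% and 17.7% of all genes), and 6 rose and 4 fell in shHMGA2-2 (29.5% and 29.2%). TLR4, the receptor of bacterial lipopolysaccharide, was at 711 and 672 counts in shNC cells, 74 and 87 for shHMGA2-1, and 27 and 31 in shHMGA2-2, a log2 fold change of -3.18 and -4.65. TNFRSF11A, known as RANK, fell as well (-1.26 and -2.95), and TNFRSF25, a receptor of the TNF family with a death domain, rose in both lines (5 and 3 counts, 19 and 16, and 57 and 63), although the shHMGA2-1 call was lost without shNC replicate 2 (adjusted p = 0.0646, edgeR). TNFRSF25 passed the filter on low counts only through the knockdown lines, so its direction against shNC was tied to the filter. It is among the 16 tested. IL1R1, the interleukin-1 receptor, was at 41 and 35 counts in shNC cells, 46 and 40 for shHMGA2-1, and 248 and 254 for shHMGA2-2. It rose 6.23-fold in shHMGA2-2 (log2 fold change 2.64, SE 0.19, adjusted p = 1.36e-11). TLR2 rose less in that line (log2 fold change 1.65, SE 0.34), and neither gene passed the test in shHMGA2-1. Of 24 adaptors and kinases that act between receptors and IKK, 5 rose and 5 fell in shHMGA2-1 (15.8% and 17.7% of all genes), and 7 rose and 13 fell in shHMGA2-2 (29.5% and 29.2%).

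BIRC2, the paralogue next to BIRC3 on chromosome 11, had 6232 and 6116 counts in shNC cells, 13629 and 14807 for shHMGA2-1, and 15074 and 14517 for shHMGA2-2. It rose in both lines (log2 fold change 1.13, SE 0.06, adjusted p = 8.21e-13, and log2 fold change 1.18, SE 0.06, adjusted p = 4.72e-14), and the direct difference between the lines, 0.056 on the log2 scale with an SE of 0.06, did not pass the test (95% confidence interval -0.07 to 0.18). How reads shared by these paralogues were counted is not stated. IRAK4 and TAB3, of the signalling downstream of interleukin-1 and Toll-like receptors, fell in both lines (IRAK4 2.01-fold and 1.53-fold, TAB3 1.87-fold and 1.57-fold). TRAF6, a ligase of the same route, fell in shHMGA2-2 (log2 fold change -0.81), and IRAK2 fell in shHMGA2-1 (-0.80). The IRAK2 value in shHMGA2-2 (log2 fold change 0.32, SE 0.13, adjusted p = 0.0322) was no longer called by DESeq2 (adjusted p = 0.113), without a filter (0.0868), or without shNC replicate 1 (0.228), shNC replicate 2 (0.060) or shHMGA2-2 replicate 1 (0.246).

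The 18 tested genes of ubiquitin editing and other feedback gave 1 higher and 8 lower in shHMGA2-1, where 15.8% and 17.7% of all genes were called, and 8 higher and 9 lower in shHMGA2-2, where 29.5% and 29.2% were. ZC3H12A, the gene of an RNase that degrades inflammatory mRNAs, was at 69 and 87 counts in shNC cells, 62 and 45 for shHMGA2-1, and 191 and 259 for shHMGA2-2, and it rose in shHMGA2-2 (log2 fold change 1.44, SE 0.19, adjusted p = 4.64e-07). Its shHMGA2-1 value (log2 fold change -0.62, SE 0.23, adjusted p = 0.0398) lost its call in 8 alternatives, with adjusted p = 0.0918 by DESeq2, and with 0.306, 0.227 or 0.0504 on leaving out shNC replicate 2, shHMGA2-1 replicate 2 or shHMGA2-2 replicate 2. TRAF1, a known NF-kB target, fell in both lines (-1.96 and -0.67), as did PDLIM2 (-1.10 and -1.65), which promotes RELA degradation. TNIP3, an A20-binding protein, was at 33 and 52 counts in shNC and at 2 or 3 in each knockdown library. It passed the filter on low counts only through shNC, so its direction was tied to the filter.

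Of 24 listed cytokine and chemokine targets 15 were tested, and none rose and 9 fell in shHMGA2-1 (15.8% and 17.7% of all genes), while 7 rose and 6 fell in shHMGA2-2 (29.5% and 29.2%). IL6 was at 117 and 93 counts in shNC cells, 41 and 50 for shHMGA2-1, and 28 and 37 for shHMGA2-2, and it fell in both lines (log2 fold change -1.28, SE 0.24, adjusted p = 0.000135, and log2 fold change -1.77, SE 0.25, adjusted p = 1.37e-06). IL11, an IL-6 family cytokine, was at 547 and 496 counts in shNC cells, 86 and 77 for shHMGA2-1, and 0 and 6 for shHMGA2-2. CSF3 had 29 and 14 counts in shNC and at most 5 in any knockdown library. CCL2, a monocyte chemokine, was at 0 in every shNC and shHMGA2-1 library and at 10 and 15 counts in shHMGA2-2. CCL2 passed the filter on low counts only through shHMGA2-2, and CSF3 only through shNC. The direction of each was thus tied to the filter, and both are among the 15 tested.

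Among 32 other induced targets 6 rose and 17 fell in shHMGA2-1 (15.8% and 17.7% of all genes), and 10 rose and 13 fell in shHMGA2-2 (29.5% and 29.2%). CD82, a tetraspanin, was at 166 and 168 counts in shNC cells, 26 and 34 for shHMGA2-1, and 560 and 594 for shHMGA2-2. It differed 19.1-fold between the knockdown lines (log2 fold change 4.26, SE 0.17, adjusted p = 1.79e-16), again on opposite sides of the control. KYNU, a tryptophan-pathway enzyme, was at 986 and 984 counts in shNC cells, 168 and 191 for shHMGA2-1, and 46 and 38 for shHMGA2-2. PTGS2, the gene of COX-2, was at 81 and 102 counts in shNC cells, 41 and 78 for shHMGA2-1, and 2 and 4 for shHMGA2-2. It was called lower in both lines. Its shHMGA2-1 call was lost by DESeq2 (adjusted p = 0.186), in edgeR with upper quartile scaling (0.0711) and by limma (0.133 and 0.179). The PTGS2 log2 fold change in shHMGA2-1 was -0.29 without shHMGA2-1 replicate 1 and -0.86 without shNC replicate 1. BTG2, an antiproliferative gene, went from 1 count in each shNC library to 68 and 55, and to 139 and 140. It passed the filter on low counts only through the knockdown lines, so its direction against shNC was tied to the filter. BTG2 is among the 32 tested.

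**Figure D4:**
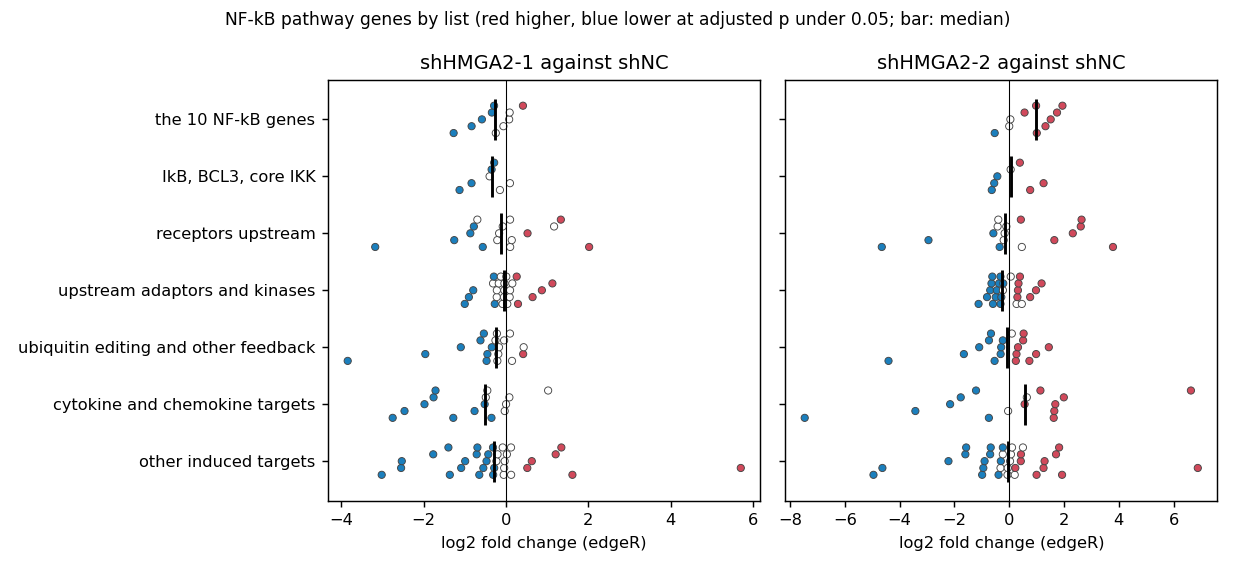
Log2 fold change (edgeR) against shNC of each tested gene, by list, with shHMGA2-1 on the left and shHMGA2-2 on the right; red points rose and blue points fell at an adjusted p under 0.05, and black bars are list medians. In shHMGA2-2 the median of the 10 NF-kB genes was 0.99, that of the cytokine and chemokine targets 0.56, and those of the other 5 lists lay between -0.26 and 0.052.

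BIRC3 lay farthest from 0 among the 10 genes in the plane of the changes against shNC, at a distance of 1.99 log2 units. Of 10885 genes with a mean of at least 5 CPM, the nearest to it in that plane were ID1 at a distance of 0.032, an inhibitor of differentiation factors, ACSS1 (0.095), a mitochondrial acetyl-CoA synthetase, and DDIT4 (0.13), a stress-induced inhibitor of mTORC1. The measure rests on 6 libraries and on a control that both changes share.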

How the data were processed

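The authors deposited a table with raw counts and FPKM values of every gene in each library, beside its position and exonic size, and the counts are not normalized. Per the submitters' processing notes, reads were aligned with HISAT2 version 2.2.1 to GRCh38.p13 and HTSeq version 0.6.1 was used; neither the annotation nor the strand setting is given in the sources used here. Coordinates in the table are thus read as GRCh38.p13. The deposited FPKM values were recomputed from counts, exonic size and library total for 100% of values, to within 0.006. Sample columns not used numbered 0.

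Groups and replicate numbers came from the sample titles. Counts were fitted in edgeR version 4.0.16 (R version 4.3.3) with TMM factors, filterByExpr and its quasi-likelihood test. P-values were adjusted by Benjamini-Hochberg over the 16110 tested genes. The 3 lines were fitted as 3 groups, and the pooled comparison as 2. A called gene had an adjusted p under 0.05. CPM values use TMM library sizes. A floor of 3 counts a library marks the most that a count of 0 can hide, and covers counting error only. The scripts were tested on simulated data. Fold changes are given on the log2 scale or as linear folds.

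The 10 genes, the pathway lists and the tests were chosen with earlier results of these data known. Genes named beside the 10 were HMGA2; from each list, the 3 with the largest mean change among those called in the same direction in both lines and the 2 with the largest called difference between the lines; the 3 nearest in pattern to the member farthest from 0; and genes overlapping a member. Marker genes were named as checks of the cell line.

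Alternatives were DESeq2 version 1.42.0, upper quartile and RLE scaling, other filters (none, or a mean of at least 1 CPM), limma version 3.58.1 on log2(FPKM + 1) and log2(FPKM + 0.1), a replicate block, only the lines compared, and each library left out in turn. Outside the replicate block, the replicate numbers were not used to pair the libraries. Promoter windows came from RefSeq (GRCh38.p14).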

Additional observations from a re-analysis of the deposited data

Results flagged for a closer look

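For 9 of the 10 genes the effect of shHMGA2-2 differed from that of shHMGA2-1 when the difference itself was tested. The test was the direct comparison of shHMGA2-2 with shHMGA2-1 in edgeR (adjusted p under 0.05). All 9 were higher in shHMGA2-2, as were 24.5% of all genes, while 25.7% of all genes were lower. For each of the 9, both shHMGA2-2 libraries lay above both shHMGA2-1 libraries in CPM. The same held for RELA, which was not called, and how many of all genes separate in this way was not counted. The log2 difference was 2.16 for TNFAIP3, 1.80 for NFKBIA, 1.67 for RELB, 1.53 for BIRC3 and 1.23 for NFKBIE. It was 1.15 for REL, 0.92 for NFKB2, 0.74 for IKBKE and 0.35 for NFKB1. HMGA2 itself was lower in shHMGA2-2 than in shHMGA2-1 (435 and 482 counts against 858 and 989), and its part in these differences was not tested. With a single line per hairpin, the hairpin and the line cannot be told apart.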

How the results depend on the processing

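The shHMGA2-2 calls of RELB, NFKB2, NFKBIA, NFKBIE, TNFAIP3, BIRC3 and IKBKE, the shHMGA2-1 calls of TNFAIP3, BIRC3 and IKBKE, and the 9 calls between the knockdown lines held in 15 of 15 alternatives. In shHMGA2-1 the called NF-kB genes went from 6 to 3 under limma with either pseudocount, where REL (adjusted p = 0.138 and 0.149), NFKB1 (0.0772 and 0.0702) and NFKBIA (0.114 and 0.105) were lost, and ranged from 3 (without shNC replicate 2) to 6 with a library left out. NFKBIE was called there without shHMGA2-1 replicate 1 (adjusted p = 0.0436, edgeR). All genes called in shHMGA2-1, 5390, ranged from 3284 (without shNC replicate 2) to 5794 with a library left out, and came to 3432 without shNC replicate 1. Each such fit assumes that a lone library varies like the other groups.

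In the pooled comparison the NF-kB genes called went from 0 to 1 under DESeq2 and to 7 (5 higher, 2 lower) as the mean of both contrasts in the model with 3 groups. All genes called went from 848 to 2268 under DESeq2, 8016 as that mean, and 4 to 822 with a library left out, with 4 without either shNC library, 315 and 356 without shHMGA2-2 replicate 1 or 2, and 466 without shHMGA2-1 replicate 1. The cause was not tested.

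The titles do not say what the replicate numbers stand for. Correlations of deviations between same-numbered libraries were -0.022, 0.0021 and -0.10. With 2 libraries a line, these cannot show whether same-numbered libraries shared a batch. With the replicate numbers as a block, 6, 8 and 9 NF-kB genes were called in shHMGA2-1, in shHMGA2-2 and between these lines, as without the block. All genes called in these comparisons were 4839, 9066 and 7609 of 16110. In the pooled comparison 0 NF-kB genes were called, and all genes called fell to 152. NFKB1 in shHMGA2-2 was then at -0.00051.

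Signs changed only for values that were not called, in log2 units. NFKB1 in shHMGA2-2 was -0.0049 under DESeq2 and RLE scaling, -0.025 without a filter, and -0.052 to 0.043 with a library left out. RELA in shHMGA2-1 was 0.00063 and 0.00071 under limma. With a library left out it was -0.16 to 0.036 in shHMGA2-1 and -0.060 to 0.14 in shHMGA2-2. In shHMGA2-1, over left-out libraries, RELB was -0.022 to 0.16, NFKB2 -0.059 to 0.25, NFKBID -0.36 to 0.10, IL1R1 -0.0097 to 0.21 and TRAF6 -0.022 to 0.080. BIRC2 between the knockdown lines was -0.018 to 0.13. Upper quartile scaling raised the median of all genes in shHMGA2-2 by 0.12, to 0.14. REL, IKBKE and TNFAIP3 had under 500 counts in every library, and the SEs of their log2 fold changes were 0.13 to 0.16.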

Other observations

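Genes near the members on their chromosomes, with a gap of at most 500 kb, were read in shHMGA2-2 against shNC (edgeR, adjusted p under 0.05), where 29.5% of all genes rose and 29.2% fell with a median log2 fold change of 0.028. Around NFKB2, 1 of 19 tested neighbours rose and 12 fell (median log2 fold change -0.36), while NFKB2 itself was at 1.01. Around BIRC3, 2 of 10 rose and 4 fell (median -0.37). Of the 11 neighbours of NFKBIA, 2 rose and 2 fell (median 0.080), and none of the 3 of TNFAIP3 was called. RELB had 28 tested neighbours, of which 9 rose and 6 fell (median 0.20). RELA, which was not called, had 46, of which 25 rose and 9 fell (median 0.35). Of the neighbours of REL 2 of 9 rose and 3 fell (median -0.088), of NFKB1 1 of 10 rose and 4 fell (-0.47), of NFKBIE 3 of 11 rose and 5 fell (-0.059), and of IKBKE 2 of 8 rose and 4 fell (-0.32).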
